A study of Homo sapiens with 21 samples.

Results

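The MYC network is the set of 10 transcription factor genes MYC, MAX, MXD1, MXD3, MXD4, MXI1, MNT, MGA, MLX and MLXIP, taken by symbol from a table of 17691 genes in the human multiple myeloma line MM.1S. All 10 were listed, and all 10 were among the 12559 genes with at least 1 TPM (a length-scaled unit giving a gene's share of the library's transcripts) in at least 3 libraries. The 21 libraries form 7 groups of 3. Wild-type cells were either left untreated or given 1 µM of pomalidomide, a drug that directs Ikaros-family proteins to the cereblon ubiquitin ligase. The cells given the drug were collected at 24, 48 or 72 h. The remaining cells, which received no drug, are labelled control knockdown, ARID2 knockdown or Aiolos knockdown. The hairpins against ARID2, a subunit of the PBAF chromatin remodeller, and against Aiolos, the protein of IKZF3, were delivered by lentivirus for 72 h. For the control knockdown, neither the hairpin nor its duration was stated in the records used. All groups are the same cell line, the 3 drug times share the untreated libraries, and both hairpin groups share the control knockdown. No untreated cells were collected beside each drug time, so time in culture and time in the drug cannot be told apart.

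MAX is the hub of the network. MYC binds DNA and activates genes as a pair with MAX, mostly at the E-box hexamer and close variants, while MXD1, MXD3, MXD4, MXI1 and MNT pair with MAX at the same sites and recruit SIN3 and histone deacetylases to repress them. MGA pairs with MAX within a Polycomb complex, PRC1.6, and MLX pairs with MLXIP (MondoA), a sensor of glucose phosphate, as well as with MXD1, MXD4 and MNT. In myeloma cells MYC is commonly driven by enhancer rearrangement and is maintained by IRF4, which lies downstream of Ikaros and Aiolos.

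The ARID2 transcript was lower in the ARID2 knockdown than in the control knockdown, at 12.4, 12.2 and 12.1 TPM against 26.0, 25.4 and 25.4 TPM. The IKZF3 transcript went against its label. In the group carrying that label it stood at 127, 121 and 141 TPM, against 83.5, 79.2 and 81.4 TPM in the control knockdown, a rise of 0.67 ± 0.05 (log2, SE, adjusted p = 1.92e-10 in limma). Those libraries are therefore named by their label throughout. Plasma cell markers were present in every library, with JCHAIN at 3210 TPM or more and CD38 at 6.31 TPM or more. Their sum was 10900 TPM untreated and 8500 to 9030 TPM at the drug times. It was 11600 TPM in the control knockdown, 10300 TPM for ARID2 and 6840 TPM for the labelled Aiolos libraries. JCHAIN made up most of the untreated sum, at 5730 TPM, and was at 3770 TPM at 72 h. Single markers went both ways. At 72 h the means of SDC1, MZB1 and CD38 were above untreated cells, and those of TNFRSF17, IRF4, PRDM1, JCHAIN and SLAMF7 below. In the ARID2 knockdown the means of SDC1, XBP1 and PRDM1 were above the control, and those of TNFRSF17, IRF4, MZB1, JCHAIN and SLAMF7 below. The summed T cell markers reached at most 2.02 TPM. The summed myeloid markers ranged from 4.09 to 71.1 TPM, mostly CD68, with means of 5.44 TPM untreated and 45.6, 70.6 and 54.5 TPM at the drug times and with CD14 at most 4.45 TPM. NCAM1, listed as an NK marker, went from 1.72 TPM untreated to 8.7 TPM at 72 h. KLRD1, the other NK marker listed, was at most 0.0178 TPM in any library. HBB, listed as an erythroid marker, went from 15.2 TPM in the control to 27.8 TPM in the ARID2 knockdown. The other erythroid markers did not rise there: HBA1 was at 0.25 TPM and HBA2 at 0.0 TPM, against 0.296 and 0.0816 TPM in the control. Mitochondrial mRNA took 15.5% of the listed TPM untreated and 17.0%, 16.7% and 13.7% at 24, 48 and 72 h. It took 17.2% in the control knockdown, 18.5% for ARID2 and 15.7% for the labelled Aiolos libraries. Ribosomal protein genes took 9.0%, 8.32%, 7.7%, 7.6%, 9.72%, 9.68% and 12.9% in the same order. The part of these shifts in the results was not tested. Since these are bulk values, fewer cells of a type and less RNA per cell cannot be told apart.

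The sequences upstream of the genes bear on the network because its proteins bind the E-box CACGTG. RefSeq promoter windows on GRCh38.p14, from 250 bases before to 50 bases after each annotated start, matched 9 of the 10 genes with 14 windows; MYC was not matched. The letters CACGTG, which are their own reverse complement, occurred in 3 of the 14 windows, those of MXD4, MNT and MLX, and in 7.26% of all 35116 windows. The MXD4 window is shown whole because MXD4 had the widest range of levels. The MNT and MLX stretches, 60 bases each, are shown for comparison because these genes had narrow ranges. All 3 are written 5′ to 3′ on the gene's strand with the E-box in capitals.
MXD4, chr4:2262060-2262359, minus strand: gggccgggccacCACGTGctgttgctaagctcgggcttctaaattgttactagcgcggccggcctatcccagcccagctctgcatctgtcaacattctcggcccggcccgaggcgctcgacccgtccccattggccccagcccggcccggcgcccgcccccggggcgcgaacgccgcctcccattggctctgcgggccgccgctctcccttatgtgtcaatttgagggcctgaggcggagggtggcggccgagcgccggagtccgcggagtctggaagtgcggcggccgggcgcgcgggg
MNT, chr17:2401221-2401280, minus strand: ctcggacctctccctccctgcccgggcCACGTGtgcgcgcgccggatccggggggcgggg
MLX, chr17:42567023-42567082, plus strand: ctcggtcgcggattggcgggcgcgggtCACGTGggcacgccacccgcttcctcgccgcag
The first base of the E-box lay 238 bases before the RefSeq start of MXD4, 193 bases before that of MNT and 50 bases before that of MLX. The gene starts in GENCODE, differ from these, and from them the distances were 53, 135 and 18 bases. The variant CACGCG, searched with its reverse complement CGCGTG, occurred in 1 window each of MXD3, MXI1 and MGA and in 11.4% of all windows. The Ikaros core TGGGAA, with its reverse complement TTCCCA, occurred in 1 window each of MXI1 and MGA and in 24.0% of all windows. None of the motifs overlapped another. A match describes these letters and does not show binding.

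In GENCODE 29 on GRCh38 all 10 genes are protein coding. MYC lies on chromosome 8 (127735434 to 127741434, plus strand), MAX on chromosome 14 (65006174 to 65102695, minus strand), and MXD4 on chromosome 4 (2247432 to 2262294, minus strand). MXD1 lies on chromosome 2 (69897688 to 69942945, plus strand), MXD3 on chromosome 5 (177301461 to 177312757, minus strand), and MXI1 on chromosome 10 (110207605 to 110287365, plus strand). MNT (2384060 to 2401118, minus strand) and MLX (42567068 to 42573239, plus strand) are both on chromosome 17. MGA lies on chromosome 15 (41621224 to 41773081, plus strand) and MLXIP on chromosome 12 (122078722 to 122147347, plus strand). Some members share exonic bases with other genes, and the records used do not say how the authors' counting divided such reads. MXD3 shares 18% of its exonic bases with RAB24 on the same strand and 22.5% with PRELID1 on the opposite strand, MLX shares 18.1% with PSMC3IP on the opposite strand, and MNT shares 12.2% with the antisense gene AC006435.1. For MXD1 and SNRNP27 the share was 3.73%, and for MAX, MXI1 and MGA with antisense or intergenic RNAs it was between 2.89% and 4.45%.

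In untreated cells MYC was the most abundant network transcript per length, at 479 TPM and the percentile 98.1 of the genes kept. MLX followed at 80.2 TPM, and the other 8 genes lay between 12.9 TPM for MXD1 and 33.2 TPM for MXI1. After 72 h of pomalidomide MYC was still first, at 305 TPM, but MXD4 stood at rank 2 instead of 4, at 114 TPM, and MXD1 at rank 6 instead of 10, at 34.5 TPM. MXD3 stood at rank 10 instead of 6, at 12.5 TPM. The ratio of the highest to the lowest group mean was 4.04 for MXD4, 3.78 for MXD1, 3.45 for MXI1 and 3.39 for MXD3. It was 2.38 for MYC, 2.01 for MLXIP and 1.62 for MAX, and only 1.33 to 1.36 for MNT, MLX and MGA.

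**Figure D1:**
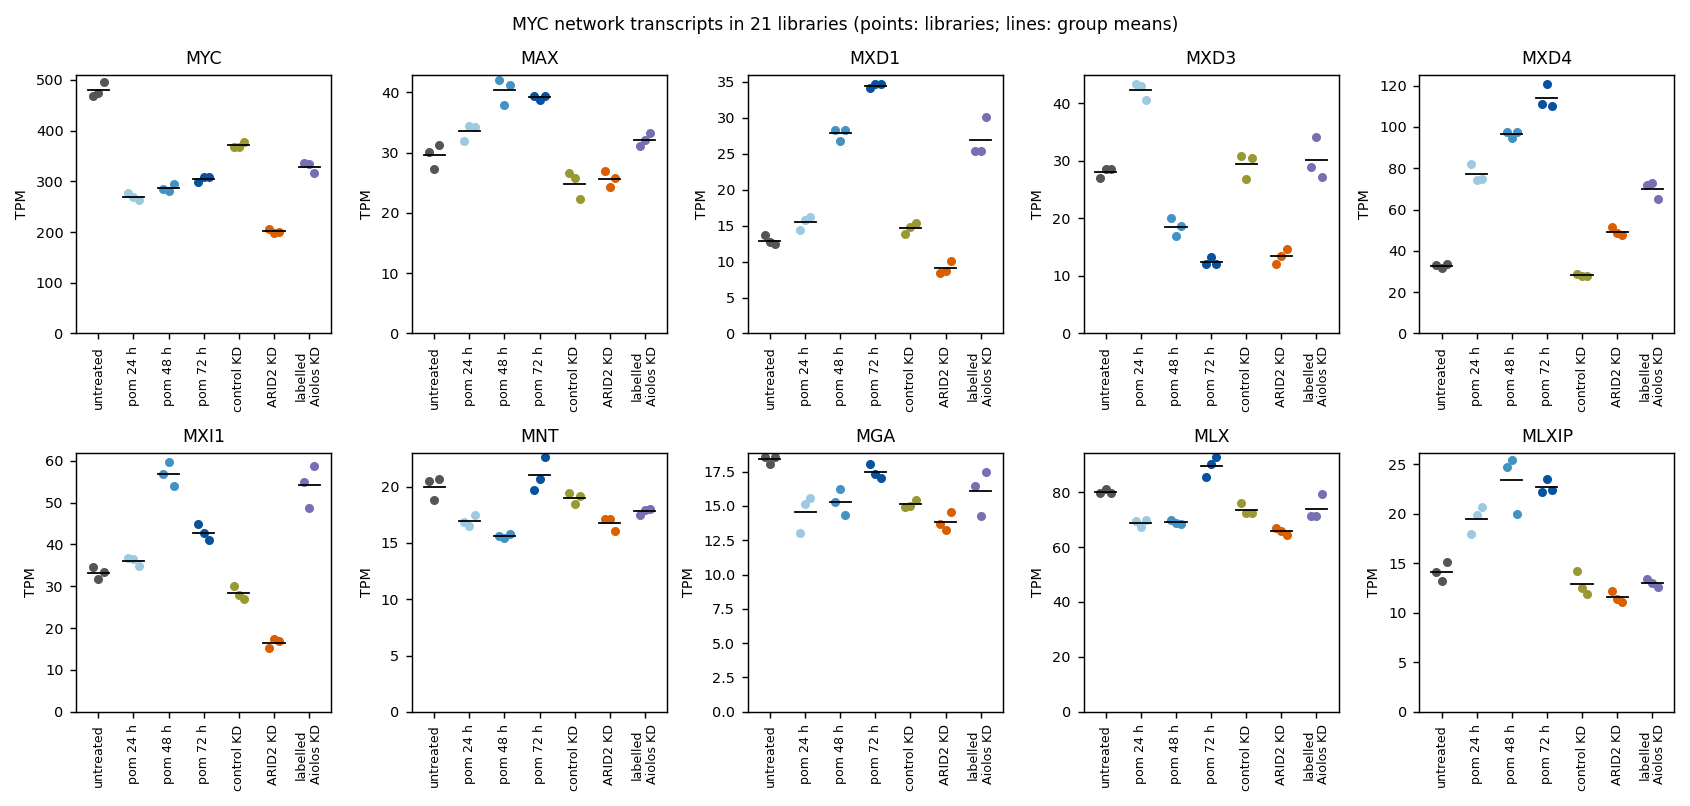
TPM of the 10 network genes in each of the 21 libraries, 1 panel per gene with its own axis from 0; points are libraries, lines are means of 3 libraries, pom is pomalidomide and KD is knockdown. MYC is highest in untreated cells and lowest in the ARID2 knockdown, MXD4 is above both control groups in all 5 other groups, and MXD1 and MXI1 are low in the ARID2 knockdown and high in the group labelled Aiolos knockdown.

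Pomalidomide moved most of the network, as it did most genes. Differences are given as log2 changes of TPM + 1 with SE, fitted in 1 limma model over all 21 libraries, and a gene passed at a Benjamini-Hochberg adjusted p under 0.05 over all 12559 genes. At 24 h 5 members rose (MXD4, MXD3, MLXIP, MXD1, MAX), 4 fell (MYC, MGA, MNT, MLX) and MXI1 did not pass. Among all genes 35.1% rose and 31.0% fell. At 48 h 5 rose (MXD4, MXD1, MXI1, MLXIP, MAX) and 5 fell (MYC, MXD3, MNT, MGA, MLX), beside 43.8% and 34.8% of all genes. At 72 h 6 rose (MXD4, MXD1, MLXIP, MAX, MXI1, MLX), 2 fell (MXD3, MYC) and MNT and MGA did not pass, beside 48.1% and 31.6% of all genes. The members' median change was 0.15, 0.11 and 0.26 at the 3 times, beside 0.03, 0.08 and 0.15 over all genes tested. With so many genes called, the number of members called is close to the background, and the description rests on which members moved and by how much.

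The 72 h values depend on scaling more than the others. Median-of-ratios scaling moved the median change of all genes at 72 h by -0.15 and quantile normalization by -0.10, and the called genes, 6047 higher and 3970 lower as deposited, became 4919 higher and 4925 lower with the former and 5235 and 4516 with the latter. Relative to the median of all genes, the 72 h changes were 1.61 for MXD4, 1.20 for MXD1, 0.49 for MLXIP, 0.24 for MAX, 0.20 for MXI1, 0.00 for MLX, -0.09 for MNT, -0.22 for MGA, -0.80 for MYC and -1.26 for MXD3. The rise of MLX at 72 h (0.16) thus turned to -0.006 under median-of-ratios scaling. MGA, which did not pass as deposited, passed as a fall (-0.22, adjusted p = 0.00415).

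Between 24 and 48 h 6 members rose and MXD3 fell, beside 32.1% and 26.1% of all genes. Between 48 and 72 h 6 rose (MLX, MNT, MXD1, MXD4, MGA, MYC) and 2 fell (MXD3, MXI1), beside 31.6% and 16.5% of all genes. Over that second interval the share of calls that were rises was 65.7% as deposited, 46.1% with median-of-ratios scaling and 53.5% with quantile normalization. The control knockdown differed from untreated cells too: no member was higher and 6 were lower (MYC, MGA, MAX, MXI1, MXD4, MLX), beside 17.3% and 28.4% of all genes. At an unadjusted p under 0.05 limma gave 1 member as higher, MXD1 at 0.17 ± 0.07 (adjusted p = 0.0557), which passed with either other scaling (0.20 and 0.21). The fall of MLX there (-0.12, adjusted p = 0.0169) did not pass with either scaling (-0.09 and -0.05), nor without replicate 2 or 3 of the control knockdown or replicate 2 of untreated (adjusted p up to 0.0634).

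Of the repressor partners, MXD1 and MXI1 moved in opposite directions in the hairpin groups, and MXD4 rose in both. In the ARID2 knockdown only MXD4 rose, and 6 members fell relative to the control knockdown (MXD3, MYC, MXI1, MXD1, MNT, MLX), beside 33.1% and 29.2% of all genes. In the libraries labelled Aiolos knockdown 4 members rose (MXD4, MXI1, MXD1, MAX) and MYC fell, beside 37.2% and 30.7% of all genes. Compared with each other, no member was higher in the ARID2 knockdown, in limma also at an unadjusted p under 0.05, and 8 were lower (all but MNT and MLXIP), beside 30.2% and 35.7% of all genes. The members' median difference was -0.41 there, beside -0.03 over all genes. The call for MGA in that comparison was lost without replicate 2 of the ARID2 knockdown or replicate 1 or 3 of the labelled Aiolos libraries (adjusted p up to 0.104), and its libraries overlapped. That call was lost as well with only the groups compared in the model (adjusted p = 0.0663).

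**Figure D2:**
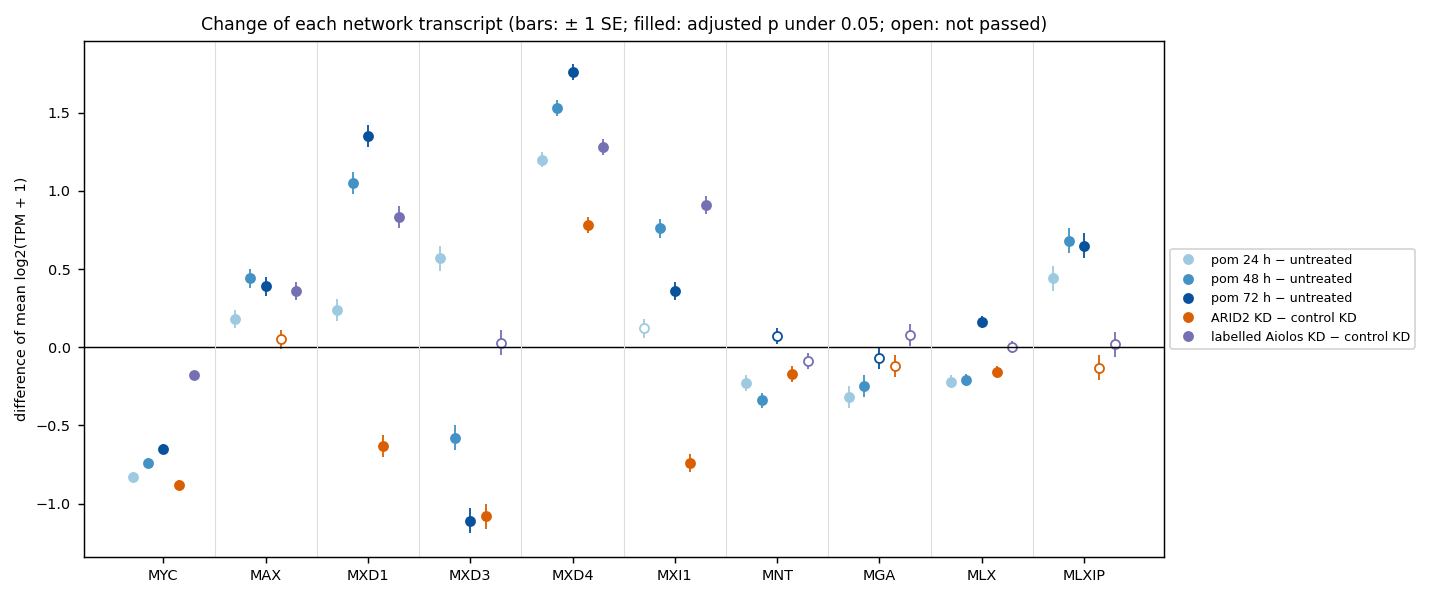
Change of each network gene on the log2(TPM + 1) scale, with bars of 1 SE on each side, for the 3 drug times against untreated cells and for the hairpin groups, ARID2 and labelled Aiolos, against the control knockdown; filled points passed, open points did not. MXD4 is above 0 in all 5 comparisons and MYC below 0 in all 5, while MXD1 and MXI1 change sign between the hairpin groups.

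MYC, the activating partner, was lower than its control in every comparison. Its TPM values were 468, 475 and 495 in untreated cells, 277, 269 and 263 at 24 h, 284, 281 and 295 at 48 h, and 299, 309 and 307 at 72 h. Every treated library lay below every untreated library, and the lowest values came at 24 h. The changes against untreated cells were -0.83 ± 0.03 at 24 h (adjusted p = 1.10e-14), -0.74 ± 0.03 at 48 h and -0.65 ± 0.03 at 72 h. The small increments between times, 0.09 ± 0.03 from 24 to 48 h (adjusted p = 0.0222) and 0.09 ± 0.03 from 48 to 72 h (adjusted p = 0.0179), each failed under median-of-ratios scaling (0.06 and 0.008). The second turned to -0.03 with quantile normalization. The first was lost as well without replicate 2 or 3 of 24 h or replicate 3 of 48 h (adjusted p up to 0.111). The second was lost without replicate 1 or 2 of 48 h or replicate 2 or 3 of 72 h (adjusted p up to 0.076).

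In the control knockdown MYC stood at 368, 367 and 377 TPM. The ARID2 knockdown libraries were at 205, 199 and 200 TPM and the labelled Aiolos libraries at 335, 333 and 316 TPM. The ARID2 knockdown held the lowest MYC of all groups, and no library of the 3 groups overlapped another group. The ARID2 knockdown lowered MYC by -0.88 ± 0.03 (adjusted p = 5.38e-15), and the libraries labelled Aiolos knockdown were lower by -0.18 ± 0.03 (adjusted p = 3.94e-05). The order of group means was untreated, control knockdown, labelled Aiolos knockdown, 72 h, 48 h, 24 h and ARID2 knockdown, and no neighbours in it overlapped. The control knockdown itself was below untreated cells by -0.37 ± 0.03 (adjusted p = 1.07e-08), so the levels of the hairpin groups are read against it and not against untreated cells.

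MAX, the shared partner, rose where MYC fell under the drug. It was at 30.2, 27.3 and 31.3 TPM untreated, 31.9, 34.5 and 34.2 TPM at 24 h, 42.0, 38.0 and 41.3 TPM at 48 h, and 39.3, 38.8 and 39.3 TPM at 72 h. The 48 and 72 h libraries were all above the untreated ones by a clear margin, whereas the 24 h libraries only just cleared them. The changes were 0.18 ± 0.06 at 24 h (adjusted p = 0.0181), 0.44 ± 0.06 at 48 h (2.54e-06) and 0.39 ± 0.06 at 72 h (9.49e-06). The 24 h call did not survive median-of-ratios scaling (0.13, adjusted p = 0.0811) and without any 1 of 3 libraries, namely replicates 2 and 3 of 24 h and replicate 2 of untreated (adjusted p up to 0.118). Among the hairpin groups, MAX measured 26.6, 25.8 and 22.3 TPM for the control, 26.97, 24.4 and 25.7 TPM for ARID2 and 31.1, 32.1 and 33.3 TPM for the labelled Aiolos libraries. The ARID2 libraries overlapped the control (0.05 ± 0.06, adjusted p = 0.533), and the labelled Aiolos libraries were all above it (0.36 ± 0.06, adjusted p = 3.88e-05). The MYC-to-MAX ratio of TPM was 16.2 ± 1.01 (SD, n = 3) untreated, 8.05 ± 0.551 at 24 h and 7.80 ± 0.182 at 72 h. It was 15 ± 1.67 in the control knockdown, 7.85 ± 0.282 in the ARID2 knockdown and 10.2 ± 0.663 in the labelled Aiolos libraries.

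MXD4, a repressor partner associated with cells leaving the cycle, was the member with the largest rise. It was at 33.0, 31.9 and 33.6 TPM untreated, 82.0, 74.4 and 74.6 TPM at 24 h, 97.7, 94.8 and 97.7 TPM at 48 h, and 111, 121 and 110 TPM at 72 h. Each time lay above the one before without overlap. The changes against untreated cells were 1.20 ± 0.05, 1.53 ± 0.05 and 1.76 ± 0.05, the last with an adjusted p of 1.70e-17. In the control knockdown it was at 29.03, 27.7 and 28.0 TPM, in the ARID2 knockdown at 51.4, 48.6 and 47.5 TPM, and in the labelled Aiolos libraries at 71.7, 72.7 and 65.1 TPM. Both hairpin groups were above the control, by 0.78 ± 0.05 (adjusted p = 3.77e-11) and 1.28 ± 0.05 (1.12e-14), and the labelled Aiolos libraries were the higher of the pair. MXD4 was the only member that rose in all 5 comparisons with a control, and neighbours in the order of its group means did not overlap.

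MXD1 (MAD1), induced as many cell types differentiate, rose late under the drug. It was at 13.7, 12.7 and 12.5 TPM untreated, 14.5, 15.8 and 16.2 TPM at 24 h, 28.4, 26.8 and 28.4 TPM at 48 h, and 34.1, 34.7 and 34.6 TPM at 72 h. The step from 24 to 48 h (0.81 ± 0.07, adjusted p = 6.48e-09) was the largest of the 3 steps. The change against untreated cells went from 0.24 ± 0.07 at 24 h (adjusted p = 0.00535) to 1.05 ± 0.07 at 48 h and 1.35 ± 0.07 at 72 h (5.17e-13). The hairpin groups lay on opposite sides of the control, which was at 13.8, 14.8 and 15.4 TPM. The ARID2 knockdown was at 8.48, 8.74 and 10.1 TPM (-0.63 ± 0.07, adjusted p = 1.63e-07) and the labelled Aiolos libraries at 25.5, 25.3 and 30.1 TPM (0.83 ± 0.07, adjusted p = 2.28e-09). The difference between the hairpin groups was -1.47 ± 0.07 (adjusted p = 4.07e-13). SNRNP27, which shares a small part of its exons, was at -0.02 ± 0.06 at 72 h (adjusted p = 0.792) but fell with MXD1 in the ARID2 knockdown (-0.24 ± 0.06, adjusted p = 0.00223), and its part there was not tested.

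MXI1 (MXD2), a further SIN3-recruiting partner, peaked at 48 h. Its values were 34.5, 31.7 and 33.4 TPM untreated, 36.7, 36.6 and 34.9 TPM at 24 h, 56.8, 59.7 and 54.0 TPM at 48 h, and 44.8, 42.7 and 41.0 TPM at 72 h. The 24 h change did not pass (0.12 ± 0.06, adjusted p = 0.119), the 48 h change was 0.76 ± 0.06 (1.07e-09), and the fall from 48 to 72 h was -0.40 ± 0.06 (3.86e-05). At 72 h MXI1 remained above untreated cells by 0.36 ± 0.06 (3.74e-05). Like MXD1, it moved in opposite directions in the hairpin groups. Against 30.1, 27.9 and 26.9 TPM in the control, the ARID2 knockdown was at 15.3, 17.3 and 16.9 TPM (-0.74 ± 0.06, adjusted p = 3.86e-09) and the labelled Aiolos libraries at 55.1, 48.7 and 58.8 TPM (0.91 ± 0.06, 1.23e-10). The difference of -1.65 ± 0.06 between the hairpin groups (adjusted p = 1.40e-14) was the largest of any member.

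MXD3, the member of the family that is expressed in proliferating cells around S phase, changed sign during treatment. It was at 27.1, 28.6 and 28.6 TPM untreated, 43.4, 42.9 and 40.6 TPM at 24 h, 20.0, 16.9 and 18.7 TPM at 48 h, and 12.1, 13.3 and 12.1 TPM at 72 h. All 24 h libraries were above and all later libraries below the untreated ones. The changes were 0.57 ± 0.08 (adjusted p = 3.51e-06), -0.58 ± 0.08 (1.87e-06) and -1.11 ± 0.08 (1.10e-10). The ARID2 knockdown, at 12.1, 13.5 and 14.6 TPM, was below the control at 30.9, 26.9 and 30.5 TPM (-1.08 ± 0.08, adjusted p = 5.24e-10) and overlapped the 72 h libraries. The labelled Aiolos libraries, at 28.97, 34.1 and 27.2 TPM, overlapped the control (0.03 ± 0.08, adjusted p = 0.780). Of the overlapping genes, RAB24 rose at all 3 times, by 0.57, 1.21 and 1.49, and in the ARID2 knockdown by 0.36 ± 0.05. PRELID1 fell by 0.32, 0.44 and 0.40 and in the ARID2 knockdown by 0.85 on the log2 scale. At 24 h RAB24 thus moved the same way as MXD3, and at 48 h, at 72 h and in the ARID2 knockdown PRELID1 did. Both are far more abundant than MXD3, at 218 and 642 TPM in untreated cells, and their part in its values was not tested.

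MNT, the most broadly expressed repressor partner, moved little. It was at 20.5, 18.8 and 20.7 TPM untreated, 16.9, 16.5 and 17.5 TPM at 24 h, 15.6, 15.4 and 15.8 TPM at 48 h, and 19.7, 20.7 and 22.7 TPM at 72 h. The 24 and 48 h libraries were below the untreated ones, and the 72 h libraries overlapped them. The changes were -0.23 ± 0.05 (adjusted p = 0.000875), -0.34 ± 0.05 (7.27e-06) and 0.07 ± 0.05 (0.257), and the last turned to -0.09 and -0.02 under the other scalings. MNT measured 19.4, 18.5 and 19.2 TPM after the control hairpin and 17.1, 17.1 and 16.1 TPM after the ARID2 hairpin (-0.17 ± 0.05, adjusted p = 0.00807). The labelled Aiolos libraries, at 17.5, 17.96 and 18.01 TPM, did not pass (-0.09 ± 0.05, adjusted p = 0.142) but did with median-of-ratios scaling (-0.15, adjusted p = 0.0148) and quantile normalization (-0.16, 0.0121).

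MGA, the PRC1.6 partner of MAX, also stayed within a narrow range. It was at 18.6, 18.03 and 18.6 TPM untreated, 13.03, 15.1 and 15.6 TPM at 24 h, 15.3, 16.2 and 14.3 TPM at 48 h, and 18.1, 17.4 and 17.1 TPM at 72 h. It fell at 24 h (-0.32 ± 0.07, adjusted p = 0.000494) and 48 h (-0.25 ± 0.07, 0.00268), and at 72 h the libraries overlapped the untreated ones (-0.07 ± 0.07, 0.369). The rise from 48 to 72 h (0.18 ± 0.07, adjusted p = 0.0359) was lost without any 1 of the libraries compared except replicate 2 of 48 h (adjusted p up to 0.147) and with median-of-ratios scaling (0.10, 0.211). That rise was lost as well with only the groups compared in the model (adjusted p = 0.0509). MGA was between 14.9 and 15.4 TPM in the control knockdown, 13.2 and 14.6 TPM in the ARID2 knockdown (-0.12 ± 0.07, adjusted p = 0.142), and 14.3 and 17.5 TPM in the labelled Aiolos libraries (0.08 ± 0.07, 0.333). The ARID2 difference passed with median-of-ratios scaling (-0.153, adjusted p = 0.0481) and quantile normalization (-0.153, 0.0435). All neighbouring groups in the order of MGA means overlapped.

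MLX, the hub of the parallel MondoA branch, fell and then rose. It was at 79.7, 81.3 and 79.6 TPM untreated, 69.4, 67.2 and 69.9 TPM at 24 h, 69.9, 68.7 and 68.5 TPM at 48 h, and 85.4, 90.2 and 92.9 TPM at 72 h. The first 2 times lay below the untreated libraries and the last above them, though that last call depended on scaling as described. The changes were -0.22 ± 0.04 (adjusted p = 8.28e-05), -0.21 ± 0.04 (7.29e-05) and 0.16 ± 0.04 (0.00151). For the control knockdown MLX measured 75.9, 72.3 and 72.5 TPM, and for the ARID2 knockdown 67.0, 65.9 and 64.4 TPM (-0.16 ± 0.04, adjusted p = 0.00184). The labelled Aiolos libraries, at 71.4, 71.2 and 79.2 TPM, overlapped the control. PSMC3IP, which shares 18.1% of MLX's exonic bases, fell at all 3 drug times, by -0.82, -1.88 and -1.93. It also fell with MLX in the ARID2 knockdown (-0.68 ± 0.07, adjusted p = 1.36e-07), and without it in the labelled Aiolos libraries (-1.31 ± 0.07). The part of PSMC3IP in the MLX values was not tested.

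MLXIP (MondoA) rose under the drug and in neither hairpin group. It was at 14.1, 13.2 and 15.2 TPM untreated, 18, 19.9 and 20.7 TPM at 24 h, 24.7, 25.4 and 20.0 TPM at 48 h, and 22.2, 23.6 and 22.5 TPM at 72 h. All treated libraries were above the untreated ones. The changes were 0.44 ± 0.08 (adjusted p = 9.57e-05), 0.68 ± 0.08 (2.07e-07) and 0.65 ± 0.08 (4.19e-07). The rise from 24 to 48 h (0.24 ± 0.08, adjusted p = 0.0144) was lost without replicate 1 of 24 h or replicate 1 or 2 of 48 h (adjusted p up to 0.0878), and its libraries overlapped. That rise was lost as well with only the groups compared in the model (adjusted p = 0.058). In the control knockdown MLXIP was at 14.2, 12.5 and 11.9 TPM, with the ARID2 hairpin at 12.3, 11.4 and 11.1 TPM (-0.13 ± 0.08, adjusted p = 0.163), and in the labelled Aiolos libraries at 13.5, 12.98 and 12.6 TPM (0.02 ± 0.08, 0.847). The 72 h effect exceeded the ARID2 effect by 0.78 ± 0.12 (adjusted p = 5.24e-06) and the labelled Aiolos effect by 0.63 ± 0.12 (8.33e-05).

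The balance between MYC and its repressor partners is described by the sum of MXD1, MXD3, MXD4, MXI1 and MNT, with no test, since its parts were each tested above. The sum was 127 ± 2.92 TPM (SD, n = 3) untreated and 188 ± 5.04, 216 ± 2.57 and 225 ± 6.37 TPM at 24, 48 and 72 h. It was 120 ± 3.79 TPM in the control knockdown, 105 ± 0.474 TPM in the ARID2 knockdown and 199 ± 0.295 TPM in the labelled Aiolos libraries. MYC per repressor transcript went from 3.77 ± 0.121 untreated to 1.44 ± 0.00804, 1.33 ± 0.0395 and 1.36 ± 0.0310 at the drug times. From 3.10 ± 0.0981 in the control knockdown it went to 1.92 ± 0.0404 in the ARID2 knockdown and 1.65 ± 0.0560 in the labelled Aiolos libraries. A low ratio thus came with low MYC and a slightly lower sum in the ARID2 knockdown, and with a higher sum and a smaller difference in MYC in the labelled Aiolos libraries. MXD4 made up 25.8% of the sum untreated, 50.7% at 72 h, 23.6% in the control knockdown, 46.9% in the ARID2 knockdown and 35.1% in the labelled Aiolos libraries. Median-of-ratios scaling left these ratios and shares as they were, because it multiplies all genes of a library alike.

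**Figure D3:**
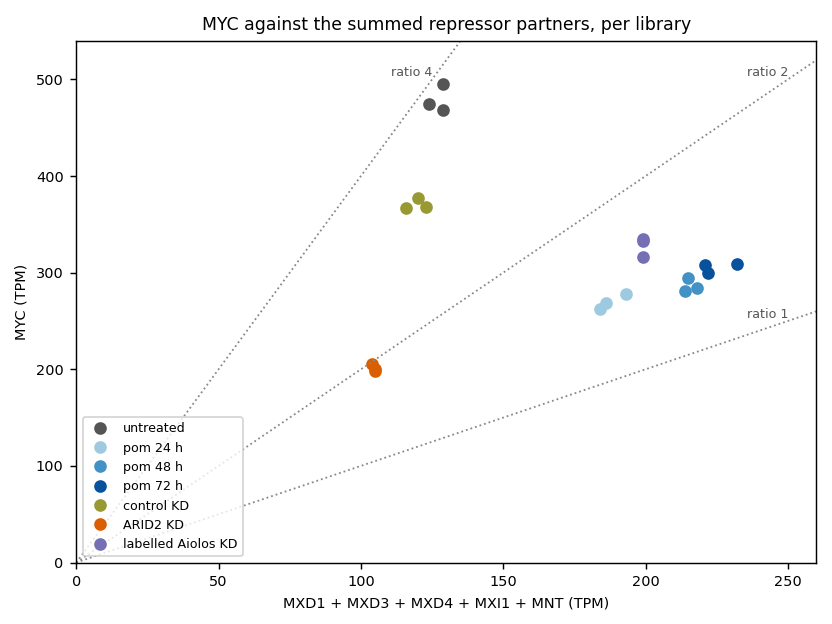
MYC (TPM, vertical axis) against the summed TPM of MXD1, MXD3, MXD4, MXI1 and MNT (horizontal axis) in each of the 21 libraries, with dotted lines at MYC-to-repressor ratios of 1, 2 and 4. The untreated and control knockdown libraries lie between ratios 2 and 4, and the 5 other groups lie below a ratio of 2, the ARID2 knockdown through its MYC level and the rest with sums of 184 TPM or more.

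The 72 h drug effect was compared with each hairpin effect as a difference of differences. Against the ARID2 effect 8 members differed, all toward a higher value under the drug, and MXD3 and MGA did not pass. Among all 12559 genes 69.5% differed in either direction, 5079 toward a higher value under the drug and 3652 toward a lower one. Of those calls 58.2% were toward a higher value as deposited and 48.9% with median-of-ratios scaling. MXD1 differed most (1.98 ± 0.10, adjusted p = 6.77e-13), followed by MXI1 (1.10 ± 0.09, 1.31e-09) and MXD4 (0.99 ± 0.07, 1.28e-10). MXD3 had nearly the same value in both (difference -0.03 ± 0.11, adjusted p = 0.830). For MYC the difference was 0.23 ± 0.04 (adjusted p = 0.000103), a smaller fall under the drug, and this call did not survive median-of-ratios scaling (0.10, adjusted p = 0.0855). The MNT difference (0.24 ± 0.07, adjusted p = 0.00817) was lost with both other scalings (0.11 and 0.17).

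Against the labelled Aiolos effect 7 members differed, beside 63.0% of all genes. Of all 12559 genes 4393 were higher under the drug and 3514 lower. MLXIP, MXD1 (0.52 ± 0.10, adjusted p = 0.000144), MXD4 (0.49 ± 0.07, 4.05e-06) and MLX were higher under the drug. MXD3 (-1.14 ± 0.11, 3.44e-08), MXI1 (-0.55 ± 0.09, 2.21e-05) and MYC (-0.47 ± 0.04, 1.01e-08) were lower. MAX, MNT and MGA did not pass. MGA passed as lower under the drug with median-of-ratios scaling (-0.242, adjusted p = 0.0283) and without replicate 2 of the labelled Aiolos libraries (-0.224, 0.0443). MNT passed as higher without replicate 1 of 72 h (0.199, adjusted p = 0.0281). The MLX difference (0.15 ± 0.06, adjusted p = 0.0265) was lost with both other scalings (0.05 and 0.09) and without replicate 1 or 2 of the labelled Aiolos libraries, replicate 1 of the control knockdown or replicate 3 of 72 h (adjusted p up to 0.0774). That difference was lost as well with only the groups compared in the model (adjusted p = 0.0634).

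The MYC family members MYCL and MYCN were scarce beside MYC and moved against it under the drug. MYCL was at 5.91, 5.68 and 7.39 TPM untreated and 23.7, 22.4 and 19.3 TPM at 72 h (1.64 ± 0.10, adjusted p = 6.42e-12). MYCN was at 5.51, 4.04 and 5.33 TPM untreated and 17.1, 17.7 and 14.6 TPM at 72 h (1.55 ± 0.11, adjusted p = 1.19e-10). Both rose at all 3 times without overlap with the untreated libraries. In the ARID2 knockdown both fell, MYCL to 2.27 TPM from 4.61 TPM in the control (-0.78 ± 0.10, adjusted p = 1.25e-06) and MYCN to 3.5 TPM from 8.64 TPM (-1.10 ± 0.11, 5.64e-08). In the labelled Aiolos libraries MYCL rose to 20.6 TPM (1.95 ± 0.10, 9.36e-13) and MYCN to 11.9 TPM (0.42 ± 0.11, 0.00262). MLXIPL (ChREBP), the liver counterpart of MLXIP, was at most 0.0871 TPM in any library.

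Genes known as targets of the network were described as lists, chosen with earlier results of these data known, by how many passed in each direction. Of the 57 genes of the list MYC targets V2, mostly nucleolar and replication genes, 56 were kept. At 24 h 51 fell and 1 rose (median -0.49, all genes 0.03), at 48 h all 56 fell (median -0.92, all genes 0.08), and at 72 h 48 fell and 2 rose (median -0.46, all genes 0.15). Of all genes 31.0%, 34.8% and 31.6% fell at these times. MCM4, part of the replicative helicase, fell by 1.43, 3.07 and 3.36 at the 3 times, and UNG, a DNA repair glycosylase, by 1.39, 2.51 and 2.69 on the log2 scale. From 48 to 72 h 48 genes rose and 5 fell (median 0.38, all genes 0.06), beside 31.6% and 16.5% of all genes, among them the ribosome assembly genes NOP56 (0.57 ± 0.04) and NOP2 (0.75 ± 0.05), while the mitotic kinase PLK1 fell further (-1.65 ± 0.05). With median-of-ratios scaling 46 rose and 5 fell over that interval (median 0.30), beside 2524 and 2951 of all 12559 genes.

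In the ARID2 knockdown, where MYC was lowest, 29 of the 56 targets fell, 8 rose and 19 did not pass (median -0.17, all genes 0.02), beside 29.2% of all genes lower and 33.1% higher. In the labelled Aiolos libraries, where MYC fell by only 0.18, 48 fell, 2 rose and 6 did not pass (median -0.41, all genes 0.05), beside 30.7% lower and 37.2% higher. Compared directly, 32 targets were higher and 9 lower in the ARID2 knockdown (median 0.22, all genes -0.03, with 30.2% and 35.7% of all genes), the reverse of the order of MYC transcript levels. The part of MYC in these target values was not tested. HK2, the first enzyme of glycolysis, fell in both, from 37.8 TPM to 7.50 TPM (-2.19 ± 0.06, adjusted p = 3.40e-16) and to 10.3 TPM (-1.78 ± 0.06, 3.66e-15). The control knockdown was itself lower than untreated cells in 50 of the 56 targets, with none higher in limma, also at an unadjusted p under 0.05 (median -0.32, all genes -0.04). Of all genes 28.4% were lower there. Across 14 alternative settings the number lower ranged from 26 to 33 in the ARID2 knockdown and from 44 to 50 in the labelled Aiolos libraries.

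**Figure D4:**
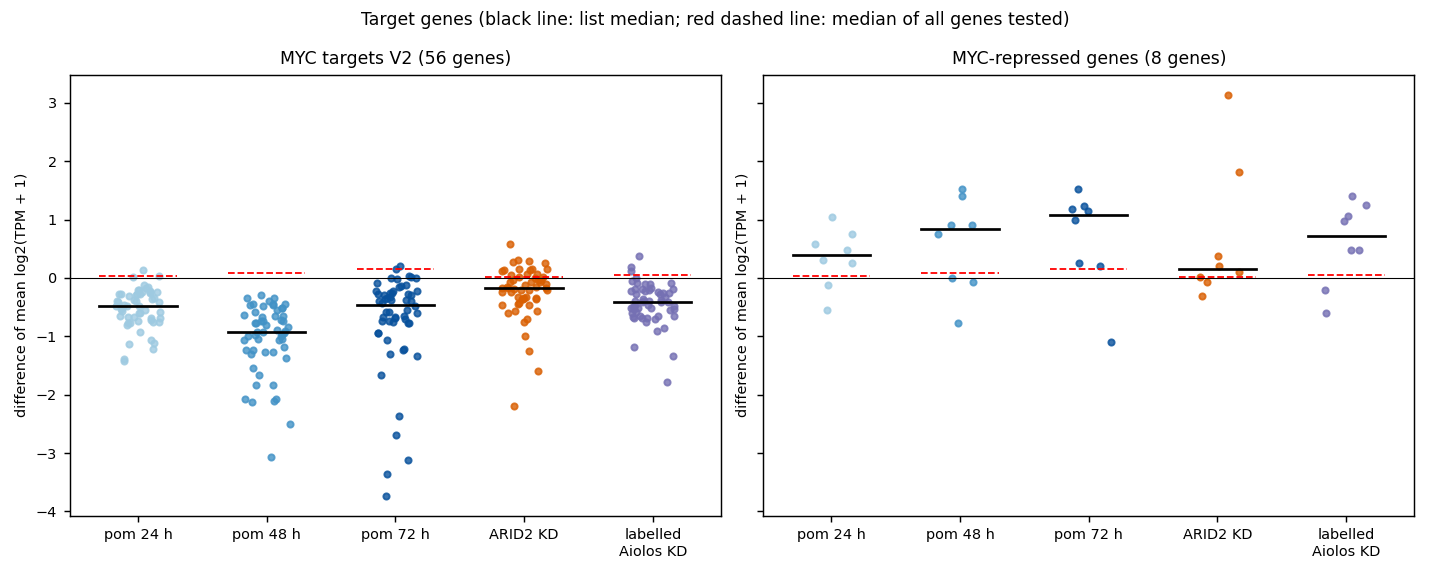
Change on the log2(TPM + 1) scale of the 56 kept MYC targets V2 (left) and the 8 kept MYC-repressed genes (right) in 5 comparisons with a control; each point is a gene, the black line is the list's median and the red dashed line the median of all 12559 genes. The target medians are -0.49, -0.92 and -0.46 at the drug times, -0.17 for the ARID2 knockdown and -0.41 for the labelled Aiolos libraries, each below the median of all genes.

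Of 9 genes repressed by MYC, mainly through ZBTB17 (MIZ1), 8 were kept. At 24, 48 and 72 h 6, 5 and 7 rose and 2, 1 and 1 fell, with medians of 0.39, 0.83 and 1.07 (all genes 0.03, 0.08 and 0.15). Of all genes 35.1%, 43.8% and 48.1% rose and 31.0%, 34.8% and 31.6% fell. The number of these MYC-repressed genes that fell depended on the setting: 0 to 3 at 48 h, with 3 under median-of-ratios scaling and 0 with a filter of 5 TPM, and 0 to 1 at 72 h. At 24 h and in the labelled Aiolos libraries it was 1 to 2. Of all genes 4897 of 12559 fell at 48 h with median-of-ratios scaling, and 4015 of 10508 with the filter of 5 TPM. The cyclin-dependent kinase inhibitor CDKN1B rose by 0.58 ± 0.03, 0.91 ± 0.03 and 1.00 ± 0.03, and NDRG1, a differentiation-associated gene, by 0.48 ± 0.04, 0.90 ± 0.04 and 1.15 ± 0.04. In the ARID2 knockdown 4 rose and 1 fell (median 0.16, all genes 0.02), beside 33.1% and 29.2% of all genes. CDKN1A, which encodes p21 and is also a target of p53, was at 587, 595 and 573 TPM there against 65.5, 67.2 and 63.3 TPM in the control knockdown (3.14 ± 0.06, adjusted p = 6.61e-19), and GADD45A, a growth arrest gene also driven by p53, rose by 1.81 ± 0.04. CDKN1A was already higher in the control knockdown than in untreated cells, by 1.46 ± 0.06. In the labelled Aiolos libraries 6 rose and 2 fell (median 0.72, all genes 0.05), beside 37.2% and 30.7% of all genes, with CCNG2, a cyclin of arrested cells, up by 1.41 ± 0.06.

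TXNIP and ARRDC4, arrestin-like genes that MLXIP and MLX activate, both rose at all 3 drug times. TXNIP was at 209, 206 and 223 TPM untreated, 498, 491 and 505 TPM at 24 h, 1053, 1045 and 1055 TPM at 48 h, and 704, 699 and 709 TPM at 72 h. ARRDC4 likewise peaked at 48 h, at 12.5 TPM against 2.23 TPM untreated. MLXIP also had its highest group mean at 48 h, 23.4 TPM, but did not differ from 72 h (-0.03 ± 0.08, adjusted p = 0.763 in limma), and the libraries overlapped. The part of MLXIP in the values of TXNIP and ARRDC4 was not tested. Both genes were lower in the control knockdown than in untreated cells, TXNIP by -0.99 ± 0.04 and ARRDC4 by -0.61 ± 0.18 (adjusted p = 0.0104). Against that control TXNIP rose in the ARID2 knockdown (0.69 ± 0.04, adjusted p = 5.27e-11) and the labelled Aiolos libraries (0.89 ± 0.04, 6.58e-13), where MLXIP did not pass. ARRDC4 rose in the latter (0.73 ± 0.18, 0.00145) and did not pass in the former (0.26 ± 0.18, 0.223).

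At 72 h against untreated cells, transcripts of the proteins that the network's factors recruit showed no common direction. Of the 16 SIN3, NCOR and histone deacetylase subunits that serve as corepressors of MXD and MNT, 8 rose and 5 fell at 72 h (median 0.10, all genes 0.15), beside 48.1% and 31.6% of all genes. With median-of-ratios scaling 4 rose and 8 fell, beside 4919 and 4925 of all 12559 genes. SIN3B, a scaffold bound by MXD proteins, rose at all 3 times (0.89, 1.17 and 1.39 ± 0.05 each) and in the labelled Aiolos libraries (0.85 ± 0.05). The histone chaperones RBBP7 (-0.95 ± 0.04 at 72 h) and RBBP4 (-0.74 ± 0.04 at 48 h) fell, as did SAP30 (-1.54 ± 0.07 at 72 h). In the ARID2 knockdown 7 corepressors rose and 5 fell (median 0.03, all genes 0.02), beside 33.1% and 29.2% of all genes, with SIN3A lower (-0.42 ± 0.05). Of the 20 MYC cofactors 9 rose and 8 fell at 72 h (median 0.00, all genes 0.15), where 48.1% of all genes rose and 31.6% fell. TOP2A, a topoisomerase of dividing cells, was at -3.19 ± 0.06 and the elongation kinase CDK9 at 0.69 ± 0.04. From 48 to 72 h 14 cofactors rose and 1 fell (31.6% and 16.5% of all genes). With median-of-ratios scaling 8 rose, beside 2524 of all 12559 genes, and with quantile normalization 5 rose, beside 2915. As deposited 3967 of all genes rose. Some other comparisons were more one-sided. From 24 to 48 h 3 cofactors rose and 11 fell, beside 32.1% and 26.1% of all genes. In the control knockdown against untreated cells 0 cofactors were higher and 9 lower (0 to 2 and 8 to 12 across the alternative settings). There 2 corepressors were higher and 11 lower, beside 17.3% and 28.4% of all genes. In the labelled Aiolos libraries RUVBL1, an ATPase of the TIP60 and INO80 complexes, fell by 1.14 on the log2 scale. Of the 10 PRC1.6 subunits around MGA, 3 rose and 4 fell at 72 h (median -0.07, all genes 0.15), beside 48.1% and 31.6% of all genes. TFDP1, a dimer partner of E2F factors, had the smallest p (-1.68 ± 0.03).

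Genes that set the stability of the MYC protein are described because TPM of MYC does not record that stability. Of 19 such genes 11 rose and 5 fell at 72 h (median 0.22, all genes 0.15), shares near the 48.1% and 31.6% of all genes. With median-of-ratios scaling 7 rose and 9 fell, beside 4919 and 4925 of all 12559 genes. The ubiquitin ligase adaptor FBXO32 rose by 1.76, 3.18 and 2.86 at the 3 times. AURKA and CIP2A, which shield MYC from degradation, fell at 72 h by 3.05 and 3.04 on the log2 scale. In the ARID2 knockdown AURKA (-2.40 ± 0.07) and the ligase component SKP2 (-1.28 ± 0.05) fell. The kinase PIM1, which phosphorylates and stabilises MYC, rose in the labelled Aiolos libraries (1.76 ± 0.05) and fell at 24 h of the drug (-0.54 ± 0.05).

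Of the regulators of MYC in plasma cells, IRF4 fell at all 3 drug times, by 1.67, 1.23 and 1.03 on the log2 scale, and most in the labelled Aiolos libraries (-2.20 ± 0.04, adjusted p = 4.35e-20). It fell less in the ARID2 knockdown (-0.48 ± 0.04, 4.41e-10), and the hairpin groups differed by 1.72 ± 0.04. The control knockdown mean of IRF4 was itself above that of untreated cells, at 631 TPM against 469 TPM. The ARID2 knockdown mean was 453 TPM and that of the labelled Aiolos libraries 137 TPM. The hairpin group with the larger fall of IRF4 was the one with the smaller fall of MYC. The part of IRF4 in the MYC values was not tested. The IKZF1 transcript rose under the drug, by 0.53, 0.85 and 0.66 ± 0.04 each, although the drug acts on the protein. PRDM1, a plasma cell repressor of MYC, rose in the ARID2 knockdown (0.46 ± 0.04) and fell in the labelled Aiolos libraries (-0.88 ± 0.04).

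The genes whose 7 group means most resembled those of each member were taken from 8112 genes by Pearson's r, as a description of these libraries. For MYC they were FOXN2 (r = 0.979), MNX1 (0.974), ZNF503 (0.971), CCNJ (0.967) and CWF19L2 (0.964). FOXN2, a forkhead factor, went from 35.0 TPM untreated to 24.1 TPM at 24 h and 16.9 TPM in the ARID2 knockdown. MXD3 was most like RNF26 (0.994), PSRC1 (0.992) and FAM111A (0.973), of which PSRC1, a spindle protein, went from 15.8 TPM untreated to 25.3 TPM at 24 h and 3.13 TPM at 72 h. MXD4 was most like INAFM2 (0.995), RNF44 (0.994) and PAPOLG (0.994), and MXD1 most like HSBP1L1 (0.991), DPY19L3 (0.990) and TBC1D5 (0.982). MXI1 was most like SNX20 (0.984), NT5C2 (0.980) and LMAN2L (0.979), MAX most like ZC4H2 (0.998), TCAF1 (0.998) and SAP30L (0.991), and MLXIP most like RILP, FAM212A and PPP1R9A (0.995 each). With only 7 group means, r is near 1 for many genes and says nothing of shared control. Between members, r over the same 7 means was 0.79 for MYC with MGA and -0.45 for MYC with MXD4.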

How the data were processed

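The authors deposited 1 table of TPM with a column per library. Per the labels' protocols, library preparation used the TruSeq RNA v2 kit, which does not mark strand, and sequencing a NovaSeq instrument, and per the submitters' processing notes the genome build was hg38. No source used here names the aligner, quantifier or annotation. TPM keeps no record of depth, so the depth of each library is unknown and no counting intervals are given. Column totals ran from 951444 to 968652 TPM, with 14158 to 15264 genes above 0. A TPM value is a share, and a gene can fall because others rose.

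Values were taken as log2(TPM + 1), with a filter of at least 1 TPM in at least 3 libraries. A single linear model (limma 3.58.1, R 4.3.3) with a mean per group covered all 21 libraries, using empirical Bayes with a trend (14 residual and 5.28 prior degrees of freedom). There were 11 contrasts, two-sided, adjusted by Benjamini-Hochberg within each contrast at 0.05, and every adjusted p comes from limma. The procedure was tested on simulated data in which a small part of the genes changed, in a single group. That test does not cover changes of as many genes as were called here. The submitters call the 3 libraries of a group biological replicates and say nothing of separate cultures or days, so the p-values reflect only the spread among these libraries, which may be technical. Because 1 is added to TPM, fold changes of low genes are understated.

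The members and the gene lists were chosen with earlier results of these data known. The text names the 10 members, from each list up to 4 genes per comparison with the smallest p, and, as most alike, the 5 genes with the highest r for MYC and 3 for each other member whose group means span at least 0.5 on the log2 scale, among genes with a mean of at least 5 TPM and the same span. MLXIPL, the genes sharing exons with members and the marker genes were named apart from this rule. Alternatives were median-of-ratios scaling, quantile normalization, pseudocounts of 0.1 and 0.5, a filter of 5 TPM or none, only the groups compared, a replicate block, and each library left out in turn. The counts of list genes under these alternatives were added after seeing the data.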

Additional observations from a re-analysis of the deposited data

How the results depend on the processing

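Over the 10 genes, 11 comparisons and all alternatives, 1570 of 1660 values kept their direction and their side of the threshold, 43 lost and 16 gained a call, and 31 changed sign. For each comparison, the count of all genes called stayed within 1.5 times its value under every alternative run. Counts of list genes moved more in places. The changes of sign were in differences near 0, apart from MLX at 72 h and MYC from 48 to 72 h, which had passed; the cause was not tested beyond the scaling itself. With median-of-ratios scaling MAX (72 h minus labelled Aiolos effect) was -0.064, MGA (72 h minus ARID2 effect) -0.071, MLX -0.058 in the labelled Aiolos libraries, -0.018 from 24 to 48 h and -0.006 at 72 h, MLXIP -0.040 and MXD3 -0.034 in the labelled Aiolos libraries, and MNT -0.090 at 72 h. With quantile normalization MAX (72 h minus labelled Aiolos effect) was -0.012, MGA -0.001, MLXIP -0.066 and MXD3 -0.037 in the labelled Aiolos libraries, MNT -0.016 at 72 h and MYC -0.027 from 48 to 72 h.

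Leaving out 1 library at a time gave ranges through 0 for MAX (-0.027 to 0.095 in the ARID2 knockdown, -0.022 to 0.108 for 72 h minus labelled Aiolos effect), MGA from 24 to 48 h (-0.008 to 0.113), MLX (-0.045 to 0.031 in the labelled Aiolos libraries, -0.011 to 0.017 from 24 to 48 h), MLXIP (-0.032 to 0.088 in the labelled Aiolos libraries, -0.137 to 0.029 from 48 to 72 h) and MXD3 (-0.064 to 0.095 in the labelled Aiolos libraries, -0.096 to 0.032 for 72 h minus ARID2 effect).

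The replicate numbers are shared between groups, but over 63 pairs of libraries with the same number the correlation of deviations ran from -0.125 to 0.110, and 2 of 21 libraries correlated best with their own number. With a replicate block 1 member call changed: MXD1 passed in the control knockdown against untreated cells (0.17, adjusted p = 0.0389).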
